A study of Mus musculus with 2 samples.

Results

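The histone genes of the clustered loci were followed in sections of mouse liver. The members are all genes of the tables whose symbols start with Hist1h, Hist2h, Hist3h or Hist4, which gave 42 of the 19465 genes. By class they comprise 6 genes of linker histone H1, 8 of H2A, 12 of H2B, 8 of H3 and 8 of H4. The gene annotation used here (GENCODE M21) holds 70 genes with such symbols, and the rest were not analysed here.

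Spatial RNA counts came from the 10x Visium platform in its version for fixed, paraffin-embedded samples, where ligated pairs of probes are captured on barcoded spots and each captured molecule is counted once through a unique molecular identifier (UMI). Each genotype, AEG-1-WT and AEG-1-C75S (WT and C75S from here on), gave 1 liver section of 5 μm from 1 animal, and both animals were untreated females of 8 weeks and littermates of a heterozygote mating. AEG-1, encoded by Mtdh, is a scaffold protein, and the C75S line was made with CRISPR/Cas9 so that a cysteine that carries palmitate became a serine in every cell of the animal. A spot covers several cells, so in these counts more cells of a type and more RNA per cell cannot be told apart.

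Histone proteins package DNA, and most of them are made while a cell copies its DNA. The mRNAs of the clustered genes generally lack introns and a poly(A) tail and end instead in a short stem-loop that the protein Slbp binds. Some of these genes also give polyadenylated transcripts in resting cells, and a separate group of single histone genes outside the clusters, the replication-independent variants, is transcribed throughout the cell cycle. Because the probes hybridize to the transcript body, the assay does not need a poly(A) tail. Adult hepatocytes rarely divide, which makes the liver a tissue where DNA replication is sparse.

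The loci lie on 4 chromosomes. Positions are those of the GRCm38 build (mm10). Of the members, 30 are on chromosome 13 (chr13:21779883-23934851), 9 on chromosome 3 (chr3:96219865-96270132), 2 on chromosome 11 (chr11:58948920-58956830) and 1, Hist4h4, on chromosome 6 (chr6:136801553-136804415). The stem-loop was searched on the transcribed strand in the first 100 bases after the stop codon as 16 letters, GG, 2 free bases, CTT, 1 free base, T, 1 free base, AG, 2 free bases and CC. It was found for 41 of the 42 members, 21 to 58 bases after the stop codon, and for 0.0363% of the 19258 other genes of the tables with an annotated stop codon. Hist2h2be is the member without a match, which says only that these letters are not in its window. The stem-loops of 5 members that recur in the results are shown with 5 bases on each side, read 5′ to 3′ on the transcribed strand from the genome sequence of GRCm38.p6, with the 16 letters of the match in capitals.
Hist1h2bc: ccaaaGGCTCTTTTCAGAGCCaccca
Hist1h3b: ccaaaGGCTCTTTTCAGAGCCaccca
Hist1h3c: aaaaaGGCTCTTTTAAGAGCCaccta
Hist1h4h: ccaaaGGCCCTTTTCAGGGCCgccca
Hist2h2ac: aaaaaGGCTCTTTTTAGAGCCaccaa

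These windows lie between the stop codon and the annotated end of the transcript. For Hist1h2bc, annotated with 2 exons, it was not checked whether the window is in an exon. On the plus strand they are at chr13:23684642-23684667 for Hist1h2bc, chr13:23752815-23752840 for Hist1h3b and chr13:23531453-23531478 for Hist1h4h. On the minus strand they are at chr13:23745042-23745067 for Hist1h3c and chr3:96220413-96220438 for Hist2h2ac. The windows of Hist1h2bc and Hist1h3b are letter for letter the same, although the counts of these genes were spread differently over the spots, as described with the dispersion index. Across the family, 25 members carried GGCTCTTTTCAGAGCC, 7 carried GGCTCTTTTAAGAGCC, and all H4 members with a match had a GGCCC stem. What differs more is the annotated end of the transcript. The annotation of Hist1h3b ends 51 bases past the stem-loop, that of Hist1h2bj and of Hist1h2bb 23 bases, and that of Hist1h4h 46 bases. By contrast Hist1h2bc, which is annotated with 2 exons, extends 8246 genomic bases past it, Hist1h1d 4884 bases, Hist1h1e 1153 bases and Hist1h1c 840 bases.

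Coding sequences within a class are close to each other, which limits how surely a probe tells neighbors apart. The nearest annotated relative had 98.8% identity for Hist1h3b (Hist1h3d) and 98.9% for Hist1h2bc (Hist1h2bj), and Hist2h2aa1 was identical to Hist2h2aa2, which was not analysed here. H1 genes are more diverged, at 84.5% at most. The assignment of UMIs among near-identical H2A, H2B, H3 and H4 genes is therefore uncertain, while the H1 members and the class sums are less affected. The UMI sums of different genes are also not comparable as transcript levels, because the number of probes per gene is not given in the sources used here, and shares below are shares of counted UMIs.

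After spots with more than 50000 UMIs were left out, 2309 spots with 42246988 UMIs were analyzed in WT and 2163 spots with 41674347 UMIs in C75S, with median UMIs per spot of 16830 and 18808. The 3 hepatocyte markers measured (Alb, Apoa1 and Ttr) made up 167124 and 172187 counts per 1000000 UMIs (CPM), so the sections carry the defining transcripts of liver. The sections share 1896 spot barcodes, which are positions of the slide design. With 1 animal per genotype no test between genotypes was possible, intervals are exact and at 95%, and they cover counting error only. Every ratio between genotypes compares these sections, not the conditions.

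The total of the histone members was nearly equal in the sections. It was 41340 UMIs in WT (979 CPM, interval 969 to 988) and 40878 in C75S (981 CPM, 971 to 990). Nearly every spot held at least 1 such UMI, with a median of 16 per spot in WT and 18 in C75S and maxima of 112 and 123. On the log2 scale, C75S over WT was 0.00 (-0.02 to 0.02), beside a median of -0.05 for the 11248 genes that reached 100 UMIs in total. By class it was 0.05 for H1 (0.02 to 0.09), -0.03 for H2A (-0.16 to 0.10), -0.02 for H2B (-0.05 to 0.01), 0.06 for H3 (-0.02 to 0.14) and -0.04 for H4 (-0.11 to 0.02). Other scalings shift every such ratio by 0.04 to 0.06, enough to turn the sign of the H2A, H2B and H4 values, and no direction is read from them.

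**Figure D1:**
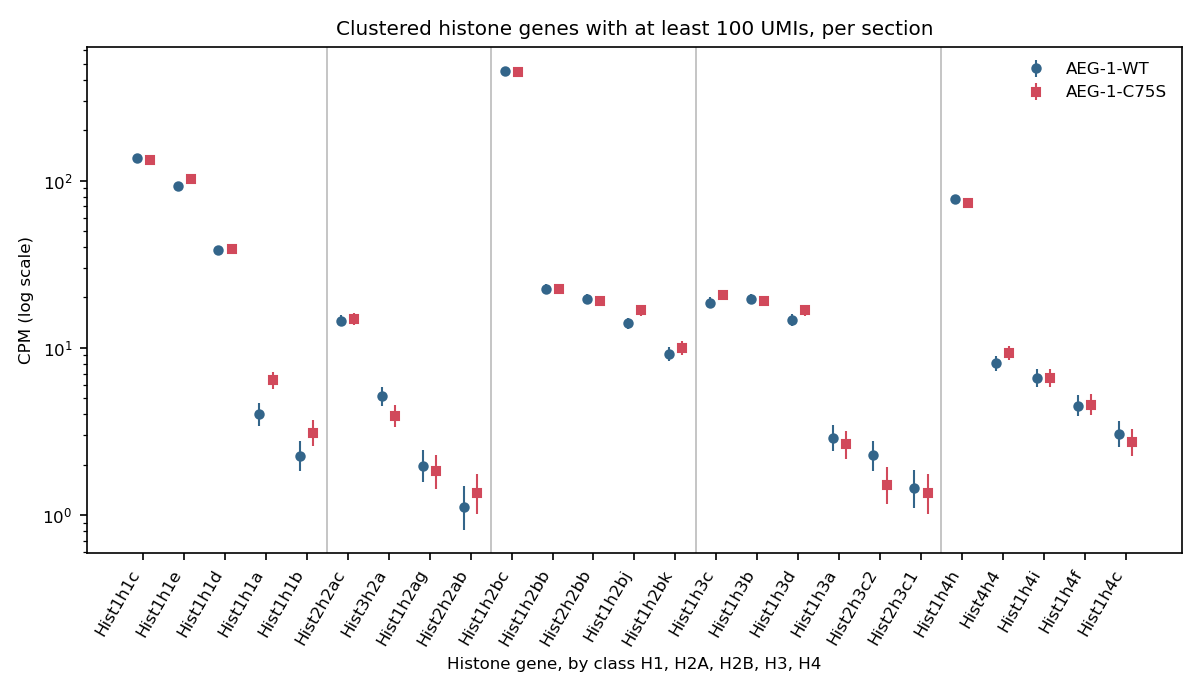
CPM on a log scale of the 25 histone genes that reached 100 UMIs in total, grouped by class, for the WT section (circles) and the C75S section (squares), with 95% exact Poisson intervals as bars. Hist1h2bc stands above all others in both sections at 452 and 443 CPM, and Hist1h1a shows the widest upward gap, with 169 and 266 UMIs.

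A few genes carried most of the counts. Hist1h2bc, an H2B gene, had 19092 UMIs in WT (18822 to 19365) and 18451 in C75S (18186 to 18719), which is 86.8% and 86.2% of the H2B UMIs and 46.2% and 45.1% of all histone UMIs. Among the H1 genes, Hist1h1c had 5785 and 5537 UMIs, Hist1h1e 3905 and 4284, and Hist1h1d 1619 and 1624. Hist1h4h took 77.1% and 75.5% of the H4 UMIs with 3285 and 3079 counts. The H3 class had no such leader, and Hist1h3b (828 and 795 UMIs), Hist1h3c (787 and 856) and Hist1h3d (618 and 700) held similar shares. Hist2h2ac led the H2A genes with 614 and 619 UMIs.

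Of the 42 members, 25 had at least 100 UMIs over both sections and 17 fell below that. Among the 17, the highest had 90 UMIs and 2 had none in either section. Those 2 were Hist1h2aa and Hist1h2ba, which are known from the testis. A count of 0 has an exact 95% upper bound of 0.0873 CPM in WT and 0.0885 in C75S. The floor of 3 UMIs stands at 0.0710 and 0.0720 CPM. Hist1h1t, the testis form of H1, had 2 and 5 UMIs.

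Between the sections, 2 of the 25 members differed by more than 0.5 on the log2 scale, against 8.60% of all genes (2.80% higher and 5.80% lower). Hist1h1a, an H1 gene tied to replicating cells, had 169 UMIs in WT and 266 in C75S, a log2 ratio of 0.67 (0.39 to 0.96). Hist2h3c2, an H3 gene, had 96 and 63 UMIs and a ratio of -0.59 (-1.07 to -0.11), and its coding sequence is 99.8% identical to that of Hist2h3b. Intervals lay above 0 for 6 members and below 0 for 4, while the shares over all genes were 17.0% above and 30.7% below. The others with an interval above 0 were Hist1h1b at 0.46 (0.07 to 0.86), Hist1h2bj at 0.26 (0.10 to 0.42), Hist4h4 at 0.21 with a lower bound just above 0, Hist1h3d at 0.20 (0.04 to 0.36) and Hist1h1e at 0.15 (0.09 to 0.22). Below 0 were also Hist3h2a at -0.39 (-0.69 to -0.09), Hist1h4h at -0.07 and Hist1h2bc at -0.03, both with upper bounds just below 0, and the value of Hist1h2bc turned positive under each of 3 other scalings. The share of members past the fold was near the background and is no result about the histone genes. Markers of other cells also differed between the sections. The summed Kupffer cell list was at 1319 and 1719 CPM, the connective tissue list at 126 and 54.1 CPM and the leukocyte list at 412 and 434 CPM, and their part in the histone ratios was not tested.

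Genes that serve histones were compared between the sections as well. Of 12 factors of histone mRNA synthesis and processing with at least 100 UMIs, none passed 0.5, against 8.60% of all genes. Intervals lay above 0 for 2 and below 0 for 2, where the shares over all genes were 17.0% and 30.7%. Slbp, which binds the stem-loop, had 466 and 415 UMIs (log2 ratio -0.15, -0.34 to 0.05), and Npat, a coactivator of histone gene transcription, 158 and 176 (0.18, -0.14 to 0.49). Of 17 histone chaperones and of 10 replication-independent histone genes none passed 0.5 either. In lists this short such counts are near the share of all genes and are no result about these genes. Among the replication-independent genes H1f0, a linker histone of resting cells, had 5263 and 4616 UMIs (-0.17, -0.23 to -0.11). H3f3b, which encodes the H3 variant H3.3, had 3649 and 3542, and H2afz, which encodes the H2A variant H2A.Z, 2685 and 2577. Of 22 S phase genes 4 were lower by more than 0.5 in C75S, against 5.80% of all genes, and none was higher. They were Tk1 (3469 and 1238 UMIs), Ccne2 (179 and 101), Prim1 (111 and 75) and Ccna2 (212 and 146). Intervals of the 22 S phase genes lay above 0 for 2 and below 0 for 5, against 17.0% and 30.7% of all genes. By intervals the list was therefore not lower more often than all genes. Of 8 G2/M genes 1 was lower, Ccnb2 (129 and 71), against 5.80% of all genes, which is 1 gene and no result about the list. Intervals of G2/M genes lay below 0 for 3, against 30.7% of all genes, and above 0 for none. The summed G2/M list had a log2 ratio of -0.23 (-0.34 to -0.12). Mki67, a marker of dividing cells, had 357 and 279 UMIs (-0.34, -0.57 to -0.11), while Top2a had 150 and 149. Pcna, with 1 and 3 UMIs, could not be compared.

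Spots were then ordered within each section by (Cyp2f2 + 1)/(Cyp2e1 + 1), a periportal over a pericentral cytochrome gene, and cut into 5 zones of equal spot number, zone 1 being the most periportal and zone 5 the most pericentral. Each zone held 7934191 to 8942674 UMIs. The total of the members ran from 887 CPM in the periportal zone to 992 in the pericentral zone of WT, a log2 ratio of 0.16 (0.11 to 0.21), and from 937 to 973 CPM in C75S, a ratio of 0.05 (0.01 to 0.10). In both sections the periportal zone was the lowest. The CPM of Hist1h2bc in the zones was 413, 442, 455, 470 and 479 in WT and 412, 431, 441, 468 and 462 in C75S. It was the only member whose pericentral over periportal interval lay above 0 in both sections, with ratios of 0.21 (0.15 to 0.28) and 0.17 (0.10 to 0.23), 1 of 20 members with at least 100 UMIs in each section against 14.1% of all genes, and no member had both intervals below 0, where 4.24% of genes did. Without Hist1h2bc the total had a ratio of 0.11 in WT and -0.04 in C75S, so the sign in C75S rests on that gene. No member passed 0.5 in the same direction in both sections, where 3.95% of genes did upward and 2.37% downward.

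**Figure D2:**
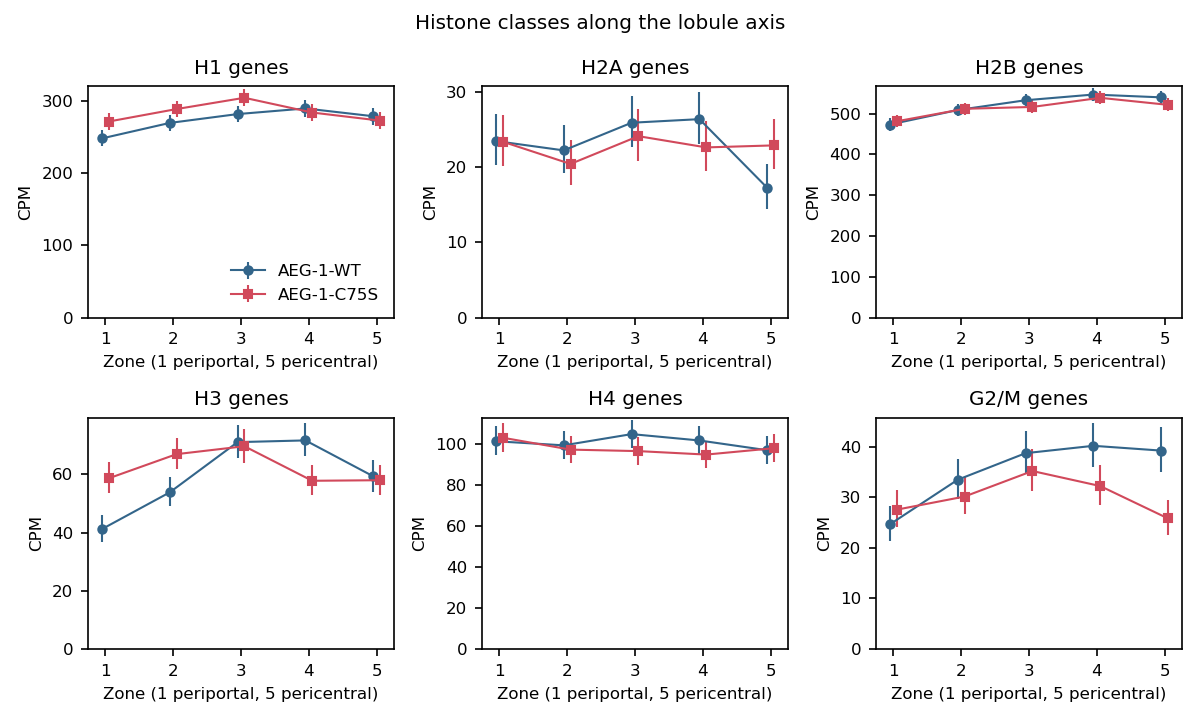
CPM of the 5 histone classes and of the G2/M gene list in 5 zones of the lobule axis, from 1 (periportal) to 5 (pericentral), for WT (circles) and C75S (squares), with 95% exact Poisson intervals as bars and all axes starting at 0. H3 genes in WT rise from 41.2 CPM in zone 1 to 71.7 in zone 4, while the H4 sum, most of it Hist1h4h, stays between 94.8 and 105 CPM.

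The H3 genes were highest in zones 3 and 4 of WT and in zone 3 of C75S. In WT the H3 sum was 41.2, 53.9, 71.1, 71.7 and 59.4 CPM from zone 1 to zone 5, and in C75S it was 58.7, 67.0, 69.7, 57.8 and 58.0. The middle zone was above the periportal one by 0.79 on the log2 scale in WT (0.59 to 0.98) and by 0.25 in C75S (0.07 to 0.43), and above the pericentral one by 0.26 in both (0.09 to 0.44). The C75S value against the periportal zone was not stable, since it was -0.24 after each spot was thinned to 3000 UMIs. The pericentral over periportal ratio of H3 was 0.53 in WT (0.32 to 0.73) and -0.02 in C75S (-0.20 to 0.17), and after thinning it was 0.57 (0.07 to 1.07) and -0.44 (-0.92 to 0.03). The difference between the sections has no replicate check. Intervals of the middle over the periportal zone lay above 0 in both sections for Hist1h1c, Hist1h2bc and Hist1h3d, 3 of 20 members against 6.40% of all genes, and no member passed 0.5 in both (1.75% of genes upward and 0.920% downward). Hist1h3d had 10.4, 14.99, 18.1, 15.1 and 14.0 CPM in WT and 15.9, 16.6, 20.6, 14.7 and 16.2 in C75S, highest in the middle zone of each.

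The G2/M list had a pericentral over periportal ratio of 0.67 in WT (0.41 to 0.94) and -0.09 in C75S (-0.37 to 0.18). Its middle over pericentral ratio was -0.02 in WT (-0.24 to 0.21), where that of H3 was above 0, and 0.45 in C75S (0.19 to 0.71). The H4 sum was at -0.06 (-0.21 to 0.08) and -0.07 (-0.21 to 0.07), but without Hist1h4h, which holds most of its UMIs, the other H4 genes were at 0.06 (-0.25 to 0.37) in WT and -0.40 (-0.70 to -0.11) in C75S, and between the 10% of spots at each end of the axis the H4 sum of C75S was at -0.22 (-0.42 to -0.01). H2A genes were lower pericentrally in WT, at -0.44 (-0.77 to -0.12), and near 0 in C75S, at -0.03 (-0.33 to 0.27), and H1 genes were at 0.17 (0.08 to 0.26) and 0.01 (-0.08 to 0.09). Markers of other cells moved along the axis too. The sum of 5 bile duct markers was lower pericentrally by a log2 ratio of -3.09 in WT and -2.06 in C75S, and that of 5 connective tissue markers by -1.38 and -0.41. Without the 5% of spots richest in each of these lists the H3 ratio of WT was 0.47 (0.26 to 0.69).

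The members also differed in how their counts were spread over the spots. The dispersion index, the mean squared deviation from the count expected from spot depth divided by that expectation, is 1 when a gene varies by counting noise alone. Its median over 10218 genes was 1.01 in WT and 1.02 in C75S. It exceeded 1.2 in both sections for 6 of 20 members, against 2.91% of all genes. They were the H3 genes Hist1h3b (1.47 and 1.63), Hist1h3c (1.72 and 1.33) and Hist1h3d (1.32 and 1.41) and the H2B genes Hist1h2bb (1.25 and 1.43), Hist1h2bj (1.29 and 1.35) and Hist1h2bk (1.29 and 1.201). The last was the member just inside, and Hist1h1c, at 1.18 and 1.19, and Hist2h2bb, at 1.18 and 1.24, were just outside. In C75S single spots reached 12 UMIs of Hist1h3b and 14 of Hist1h2bb, where the means were 0.368 and 0.434 UMIs per spot.

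**Figure D3:**
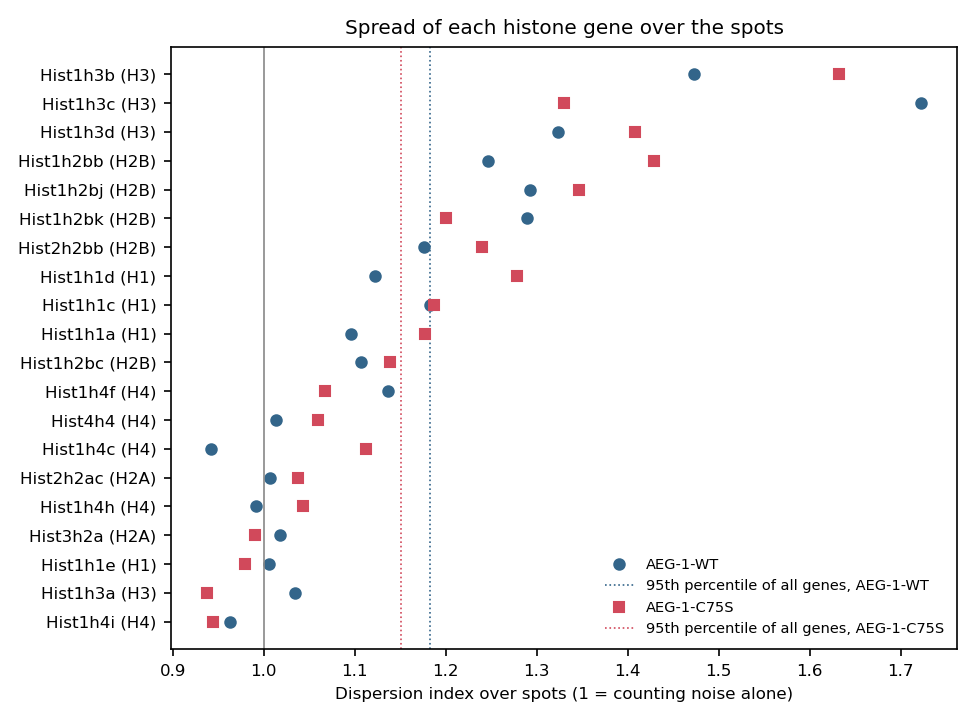
Dispersion index over spots of the 20 histone genes with at least 100 UMIs in each section, for WT (circles) and C75S (squares), with the 95th percentile of all genes in each section as dotted lines (1.18 and 1.15) and a grey line at 1. Hist1h3c is farthest to the right in WT (1.72) and Hist1h3b in C75S (1.63), while Hist1h4h (0.991 and 1.04) lies near the line.

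Several of the genes with the most UMIs were even by the index or by its excess over counting noise. Hist1h2bc had an index of 1.11 and 1.14, above that of 91.3% of the genes in WT and 94.3% in C75S. The index grows with the level, so the excess squared coefficient of variation beyond counting noise is also given. For Hist1h2bc this excess was 0.0129 and 0.0163, where that of Hist1h3c was 2.12 and 0.833. The excess over all genes is not given here. Hist1h1e was at 1.01 and 0.979, Hist1h4h at 0.991 and 1.04 and Hist2h2ac at 1.01 and 1.04. Hist1h1d, at 1.12 and 1.28, lay between. The cut of 1.2 depends on the level too, so rarer members can be uneven and stay below it. Hist1h1a, at an index of 1.10 and 1.18, had an excess of 1.32 and 1.44, where Hist1h3b had 1.32 and 1.72. The excess of Hist1h4f was 1.66 and 0.767, while that of Hist1h4i was -0.307 and -0.439, all on few UMIs. Transcript ends divide the groups only in part. Of the 6 members over 1.2, 5 are annotated to end 23 to 74 bases past the stem-loop and Hist1h3d 752 bases past it, but the even Hist1h4h and Hist2h2ac also end 46 and 57 bases past it. Summed by class, the index was 2.35 for H3 in both sections, 1.33 and 1.42 for H1, 1.02 and 1.11 for H4, and 1.11 and 1.08 for the replication-independent histone genes.

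To see which other members share the uneven spots, the 1% of spots with the highest share of UMIs in H1, H2A and H2B members was taken in each section, and genes not used in that choice were read there. In the 23 such spots of WT, H3 genes were at 369 CPM against 57.0 in all other spots, a log2 ratio of 2.69 (2.44 to 2.94), and in the 22 spots of C75S at 434 against 59.0, a ratio of 2.88 (2.64 to 3.11). H4 genes were higher by 0.66 (0.27 to 1.02) and 1.03 (0.67 to 1.36). The G2/M list was higher by 1.88 (1.44 to 2.29) and 2.31 (1.88 to 2.71), and the S phase list by 0.30 (0.03 to 0.56) and 0.65 (0.37 to 0.93).

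The converse choice, made after the data had been seen, took spots with at least 8 UMIs of H3 genes. There were 26 such spots in WT (1.13% of spots), which held 10.4% of the H3 UMIs, and 25 in C75S (1.16%), which held 11.1%. At the threshold, 8 and 6 spots had 8 UMIs and 13 and 9 spots just outside had 7, and the highest spots had 24 and 30. These spots were deeper than the rest, with median UMIs of 19513 against 16801 in WT and 24081 against 18766 in C75S. From zone 1 to zone 5 of the axis there were 3, 2, 9, 7 and 5 of them in WT and 5, 3, 7, 6 and 4 in C75S, so they were found in every zone.

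**Figure D4:**
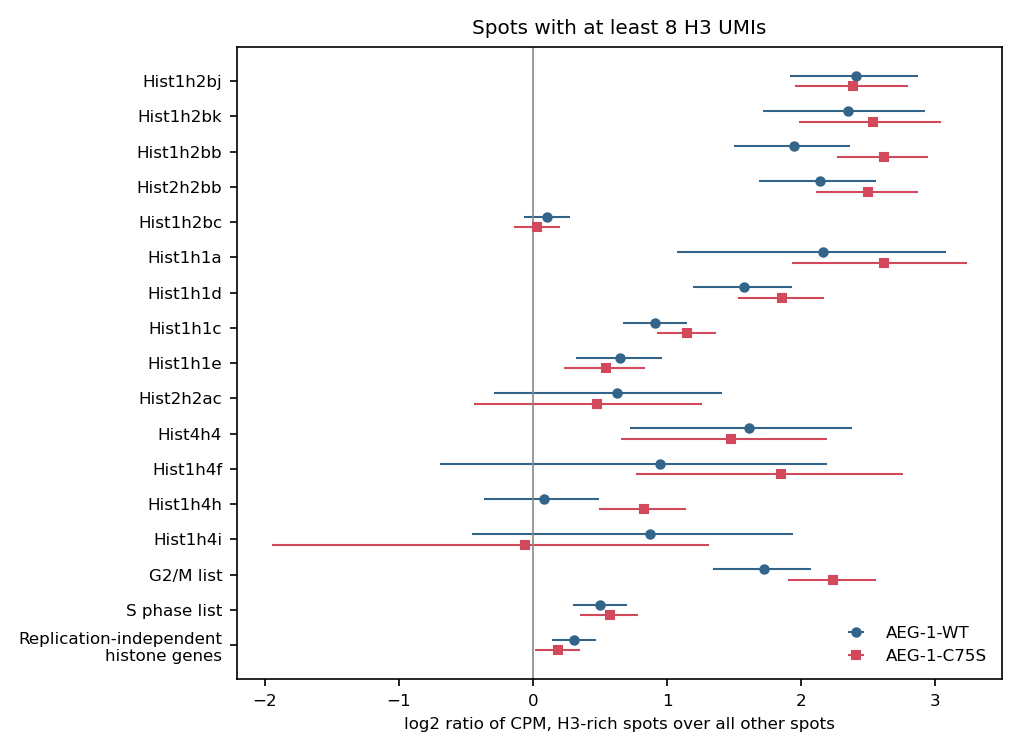
Log2 ratio of CPM in spots with at least 8 H3 UMIs over all other spots of the same section, for histone genes of the other classes and 3 gene lists, with WT as circles, C75S as squares and 95% exact binomial intervals as bars. Hist1h2bc sits at 0.10 and 0.03 while Hist1h2bj sits at 2.41 and 2.39, and the G2/M list is at 1.72 and 2.23. Hist3h2a and Hist1h4c, whose signs differ between the sections, are not drawn.

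In these spots the H2B genes parted. Hist1h2bj went from 13.2 CPM in the other spots to 70.1 in WT and from 15.7 to 82.2 in C75S, log2 ratios of 2.41 (1.92 to 2.87) and 2.39 (1.95 to 2.80). Hist1h2bk was higher by 2.35 and 2.53, Hist2h2bb by 2.14 and 2.50, and Hist1h2bb by 1.95 and 2.62. Hist1h2bc was at 485 CPM against 451 and at 452 against 443, ratios of 0.10 (-0.07 to 0.27) and 0.03 (-0.14 to 0.20). All other H2B genes together had ratios of 2.11 (1.88 to 2.34) and 2.47 (2.27 to 2.66), intervals far from those of Hist1h2bc in both sections. Over all spots, the correlation of the depth-corrected counts of H3 genes with those of H2B genes other than Hist1h2bc was 0.53 in WT (2309 spots) and 0.58 in C75S (2163 spots), and with Hist1h2bc it was 0.03 and -0.01. These are descriptions over spots of 1 library each, and the H3 and H2B sums come from different genes of the same libraries.

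The octamer ATTTGCAT is a motif known from H2B promoters and was searched on both strands from 250 bases before to 50 bases after the start of each gene in the RefSeq promoter table of GRCm38. The table held 37 of the 42 members, without Hist1h2bc. A gene was counted when any of its listed promoters held the motif. It was found for 6 of 10 H2B genes and 5 of 8 H2A genes. None of the 6 H1, 6 H3 and 7 H4 genes had it, and 1.93% of the 26988 other genes did. All H2B matches were on the strand of the gene and all H2A matches on the opposite strand. The H2A and H2B counts are not independent, since the matches of Hist1h2aa and Hist1h2ba are the same site (chr13:23934302-23934331). It is shown in capitals with its neighboring bases for 3 of the H2B genes that were high in the H3-rich spots, at chr13:23746633-23746662, chr13:22035780-22035809 and chr3:96269641-96269670, all on the plus strand. Hist1h2bj, which was as high there, has no match in its window. The other H2B matches were in the testis form Hist1h2ba, which had no UMIs, and in members below 100 UMIs over both sections. Hist1h2bc itself was not searched, but the match of its neighbor Hist1h2ac, within chr13:23684071-23684100, reads ATTTGCAT on the plus strand. That is less than 250 bases before the annotated start of Hist1h2bc, a plus-strand gene (chr13:23684199). A link between the motif and the H3-rich spots was not tested.
Hist1h2bb: ttgagtctcttATTTGCATaaagcctttga
Hist1h2bk: catttcactttATTTGCATacgaagttcta
Hist2h2bb: tgtgaaacctcATTTGCATacaagctctat

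The linker histones also differed in the H3-rich spots. Hist1h1a was at 2.16 (1.08 to 3.08) in WT and 2.62 (1.93 to 3.24) in C75S, followed by Hist1h1d at 1.57 (1.19 to 1.93) and 1.86 (1.53 to 2.17), Hist1h1c at 0.91 (0.67 to 1.15) and 1.15 (0.93 to 1.36) and Hist1h1e at 0.65 (0.32 to 0.96) and 0.54 (0.23 to 0.84). The intervals of Hist1h1a and Hist1h1d overlap, while those of Hist1h1d and Hist1h1c do not. Hist1h1b, below 100 UMIs in WT, was at 2.26 (0.78 to 3.44) and 2.60 (1.55 to 3.49). Of the H2A genes, Hist2h2ac was at 0.62 (-0.29 to 1.41) and 0.48 (-0.44 to 1.26), and the rarer Hist1h2ag, on 11 and 7 UMIs, at 3.44 (2.38 to 4.37) and 2.72 (1.35 to 3.84). Hist3h2a, on 1 and 6 UMIs, was at -1.59 (-6.90 to 0.90) in WT and 1.31 (-0.16 to 2.46) in C75S. Of the H4 genes, Hist4h4 was at 1.61 (0.73 to 2.38) and 1.48 (0.65 to 2.19), and Hist1h4h at 0.08 (-0.36 to 0.49) and 0.83 (0.49 to 1.14). Hist1h4f was at 0.94 (-0.70 to 2.19) and 1.85 (0.76 to 2.76). Signs differed between the sections for Hist1h4i, at 0.87 (-0.45 to 1.94) and -0.06 (-1.95 to 1.31). The same held for Hist1h4c, on 3 and 1 UMIs, at 0.76 (-1.54 to 2.34) and -0.80 (-6.12 to 1.71). In all, 7 of the 16 members outside H3 with at least 100 UMIs in each section were higher by more than 1 in both, against 0.744% of all genes.

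Cell-cycle genes were counted in the same spots. The G2/M list was at 113 CPM against 34.3 in WT, a log2 ratio of 1.72 (1.34 to 2.07), and at 134 against 28.5 in C75S, a ratio of 2.23 (1.90 to 2.55). At least 1 G2/M UMI was found in 25 of the 26 spots and in 22 of the 25 spots, beside 41.4% and 37.6% of all other spots, which were less deep. Of 5 G2/M genes with at least 100 UMIs in each section, 4 were higher by more than 1 in both, against 0.744% of all genes. They were the mitotic genes Cdk1, Kif11, Mki67 and Nusap1. Mki67 was at 1.54 (0.65 to 2.31) and 2.67 (2.02 to 3.27). The S phase list was higher by 0.50 (0.30 to 0.70) and 0.57 (0.35 to 0.78). Of 17 S phase genes 1, Fen1, passed 1 in both, against 0.744% of all genes, which is 1 gene and no result about the list. Fen1 had 6 and 9 UMIs there and an interval that reached below 0 in WT (-0.28 to 2.33). Slbp, on 8 and 7 UMIs, was at 0.31 (-0.91 to 1.31) and 0.15 (-1.17 to 1.21). The replication-independent histone genes were at 0.31 (0.14 to 0.47) and 0.18 (0.01 to 0.35).

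**Figure D5:**
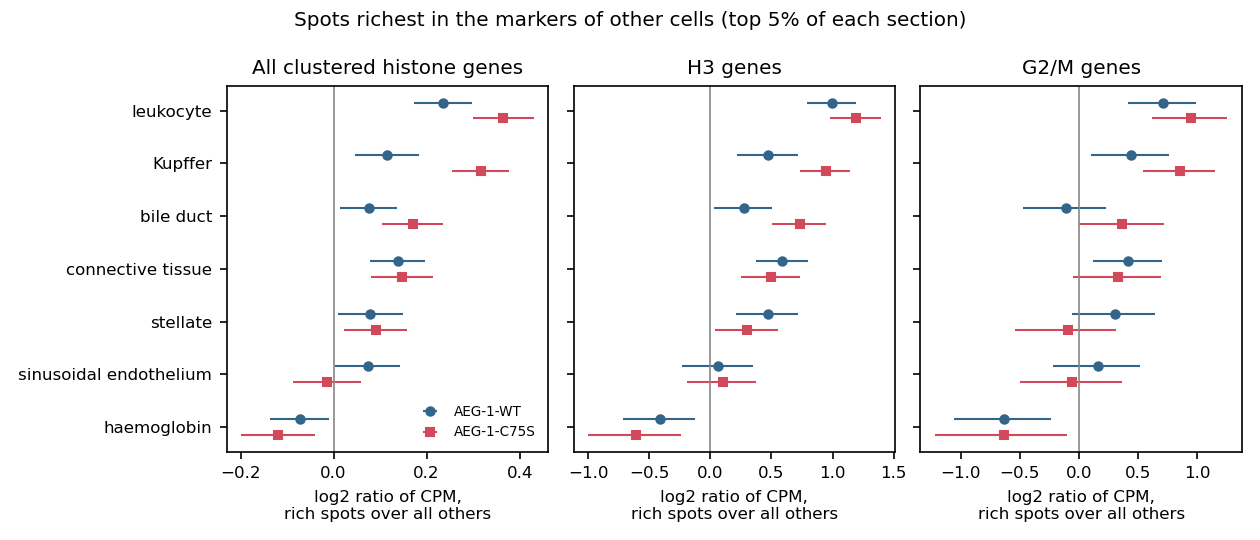
Log2 ratio of CPM in the 5% of spots richest in each marker list over all other spots of the section, for all clustered histone genes, H3 genes and G2/M genes, with WT as circles, C75S as squares and 95% exact binomial intervals as bars; the horizontal scales differ between panels. Leukocyte-rich spots have the highest H3 values in both sections, at 0.996 and 1.19, and haemoglobin-rich spots the lowest, at -0.41 and -0.61.

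Spots rich in markers of several non-hepatocyte cell types had more H3 RNA. The leukocyte list is dominated by Cd74, an antigen presentation gene, with 15451 of its 17410 UMIs in WT and 15796 of 18087 in C75S. In the 5% of spots richest in 6 leukocyte markers, H3 genes were higher by 0.996 in WT (0.79 to 1.19) and 1.19 in C75S (0.98 to 1.39), and H2B genes other than Hist1h2bc by 0.89 (0.69 to 1.08) and 1.19 (0.99 to 1.37). The histone total was higher there by 0.24 (0.17 to 0.30) and 0.36 (0.30 to 0.43), but the size depended on the setting, since it was 0.13 and 0.22 in the 10% of spots richest in these markers and, after thinning to 3000 UMIs per spot, 0.073 (-0.083 to 0.23) in WT and 0.32 (0.16 to 0.47) in C75S. Spots rich in Kupffer cell markers, which mark the macrophages of the liver, had H3 ratios of 0.47 (0.22 to 0.72) and 0.94 (0.73 to 1.14), and those rich in bile duct markers 0.27 (0.03 to 0.51) and 0.73 (0.51 to 0.95). Spots rich in connective tissue markers were at 0.59 (0.37 to 0.80) and 0.50 (0.25 to 0.74), in stellate cell markers at 0.47 (0.21 to 0.72) and 0.30 (0.04 to 0.56), and in sinusoidal endothelial markers at 0.07 (-0.23 to 0.35) and 0.10 (-0.19 to 0.38). The connective tissue spots are not alike in the sections. They held 3005 UMIs of that list in 115 spots of WT and 686 in 108 spots of C75S. Haemoglobin-rich spots were lower, at -0.41 (-0.71 to -0.13) and -0.61 (-0.999 to -0.24). The spots are regions of several cells and not cell types.

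Conversely, the H3-rich spots held more leukocyte markers than the rest, with a log2 ratio of the summed list of 1.25 (1.13 to 1.37) in WT and 0.86 (0.72 to 0.98) in C75S, and 6 of the 26 and 4 of the 25 were among the 5% of spots richest in leukocyte markers. Connective tissue markers were at 1.52 (1.32 to 1.72) and 0.23 (-0.26 to 0.68), bile duct markers at 0.74 (0.47 to 0.997) and 0.69 (0.39 to 0.98), Kupffer cell markers at 0.19 (0.10 to 0.29) and 0.46 (0.38 to 0.53), haemoglobin at -0.60 and -1.12, and hepatocyte markers at -0.07 and -0.03. Stellate cell markers were near 0, at 0.09 (-0.07 to 0.24) and -0.07 (-0.21 to 0.07). Sinusoidal endothelial markers were at -0.01 (-0.18 to 0.15) and 0.16 (0.01 to 0.30). When the spots richest in bile duct and connective tissue markers were left out, the G2/M ratio was 1.62 and 2.17 and that of the H2B genes without Hist1h2bc 2.13 and 2.33. The part of these cells in the H3-rich spots was not tested.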

How the data were processed

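The deposited gene by spot matrices hold raw UMI counts, which the authors made with Space Ranger 2.0.1 on mm10 (the submitters' processing notes also name Seurat 4.3.0). Each GEO sample is 1 section. Spots with over 50000 UMIs, under 100 or over 7000 genes were left out, 7 in WT and 4 in C75S. The upper limits also remove the spots of highest depth. Counts were summed over spots and divided by the total (CPM), ratios of sums were given 95% exact binomial intervals and counts exact Poisson intervals, and intervals and the floor of 3 UMIs cover counting error only. Python 3.11.15, numpy 2.4.6, scipy 1.17.1, pandas 2.3.3 and matplotlib 3.10.9 were used, and edgeR 4.0.16 in R 4.3.3 for TMM factors only. The calculations were tested on simulated data.

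Members with at least 100 UMIs over both sections could be named, testis forms at any level, and of other lists the gene with the most UMIs, those past the fold and a few set genes such as Slbp and Mki67. Cdk1, Kif11, Nusap1 and Fen1 were named after their values were seen. The members and lists were chosen with earlier results of these data known, and the H3-rich spots after the data had been seen. Some items are not reported here. Of the gene symbols, 11 occur more than once and none of these is a member.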

Additional observations from a re-analysis of the deposited data

Results flagged for a closer look

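Mki67 moved in opposite directions along the lobule axis in the sections. Its pericentral over periportal log2 ratio was 0.59 (0.03 to 1.16) in WT, with 5.78 CPM in zone 1 and 8.70 in zone 5, and -0.71 (-1.32 to -0.10) in C75S, with 7.60 and 4.66 CPM. It was singled out because both intervals leave out 0 on opposite sides. The dispersion index of Mki67 was 1.23 in WT and 1.30 in C75S. These intervals, which cover counting error only, therefore leave out part of its spread over spots. With 1 section per genotype the difference was not tested. Top2a, at 0.73 (-0.12 to 1.61) and 0.25 (-0.56 to 1.07), showed no such opposition.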

How the results depend on the processing

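With 1 section of 1 animal per genotype no replicate spread exists, spots are not replicates, and near-identical genes limit the assignment of UMIs. No paired analysis was possible because each genotype had 1 section. Over 491 recomputed values of 91 results, 420 moved by less than the counting interval. The sign differed from the reported value in 60, most of them values whose interval includes 0, and in 7 the reported interval had left out 0. The cause was not tested for any of these. The H3-rich spots were recomputed with at least 5 and at least 12 H3 UMIs, without portal tract spots and without the spot filter, and the summed H1, H2A, H4 and G2/M genes and the H2B genes without Hist1h2bc were higher there under each. The sizes were less stable. With at least 12 UMIs 6 values moved by more than the counting interval and 6 did not, and with at least 5 it was 4 and 8. At 12 few spots remain, in WT 2 with 12, 1 with 14 and 1 with 24 UMIs.

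After thinning to 3000 UMIs per spot, which left out 4 and 3 spots, the C75S over WT log2 ratio was -0.061 for all members, 0.012 for H1, -0.10 for H2B and -0.14 for H4. The axis ratio was 0.10 for H2B in WT and -0.44 for H3 in C75S, and the middle over periportal H3 ratio of C75S was -0.24. For all members in marker-rich spots, thinning gave 0.0699 for Kupffer and 0.22 for connective tissue markers in C75S, 0.00023 for bile duct and 0.073 for leukocyte markers in WT, -0.0086 and 0.0032 for stellate markers (WT first), -0.20 for haemoglobin in C75S, and -0.11 and 0.013 for neutrophil markers. Other scalings shifted all genes by 0.05 (median gene), 0.06 (TMM) and 0.04 (without the 20 most abundant genes). The section ratio became 0.054, 0.0598 and 0.048 for all members, 0.10, 0.11 and 0.10 for H1, 0.031, 0.037 and 0.026 for H2B, and 0.021, 0.027 and 0.015 for Hist1h2bc. Without the member with the most UMIs it was 0.031 for all, 0.14 for H1, 0.0502 for H2B and 0.052 for H4, and the axis ratio was 0.11 (WT) and -0.043 (C75S) for all, 0.013 and -0.23 for H2B, and -0.40 for H4 in C75S. In the interquartile range of spots by UMIs the axis ratio of WT was 0.24 for all and 0.29 for H1. Between the 10% of spots at each end of the axis it was 0.073 for H1 in WT, and 0.19 for H2B and -0.22 for H4 in C75S, and 2 members passed the fold. With a minimum of 50 UMIs 4 members passed the fold between sections, and with 200 it was 1. The shares over all genes at the 10% ends and at these minimums are not given here. These counts are therefore no result about the members. In the top 10% of spots the ratio of all members was 0.25 for Kupffer, 0.10 for bile duct and 0.22 for leukocyte markers in C75S, and 0.13 for leukocyte markers in WT. In the top 5% of spots by H1, H2A and H2B, the H3 ratio was 2.12 and 2.17, and in C75S H4 was 0.63 and G2/M 1.87.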

Other observations

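The spots left out for depth held the histone members at 853 CPM in WT (7 spots, 317 UMIs) and 889 CPM in C75S (4 spots, 194 UMIs), log2 ratios to the kept spots of -0.20 (-0.36 to -0.04) and -0.14 (-0.35 to 0.06). In the 5% of spots richest in stellate cell markers, H4 genes were lower than in the other spots, at -0.30 (-0.56 to -0.06) and -0.26 (-0.51 to -0.02), where H3 genes were higher.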
